A study of Homo sapiens with 2 samples.

Results

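Genes of the complement system were followed in HCECs, a human corneal epithelial cell line immortalized with SV40, after transfection with miR-184. The genes were 3 membrane regulators (*CD55*, *CD46* and *CD59*), 2 proteases of the classical pathway (*C1R* and *C1S*), *C3* and *CFB*, and 2 secreted regulators (*CFI* and *CLU*). These 9 genes were chosen by name, with earlier results of these data known. Genes were read from a feature with their symbol alone, taking the feature with the highest mean signal where a gene had several. On the array 22368 genes had such a feature. Of the 9 genes 8 were measured in this way, and *CD59* was not, because the annotation gives its only feature to *C11orf91* as well. One array held RNA of cells that had received 50 nM miR-184 mimic, and the other RNA of cells that had received a negative control oligonucleotide (NC) at 50 nM. Both cultures grew with serum, insulin and EGF, and were taken at 48 h after transfection with Lipofectamine RNAiMAX.

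With 1 array per condition no *P*-value or error can be given for any difference, and an effect of miR-184 cannot be told apart from a difference between the 2 cultures, nor less RNA per cell from fewer cells of a type. Each value is a log2 signal, and a difference is the miR-184 value minus the NC value. A gene is counted as lower or higher where its signal differed by at least 1.5 times. The corneal identity of the cells was checked on 9 measured marker genes. *KRT5*, *KRT19*, *CDH1* and *EPCAM* had a mean signal at or above the median of all genes, whereas *KRT3*, *KRT12* and *PAX6*, which define the corneal epithelium, lay below it in this line, as did *KRT14* and *KRT15*. All 7 markers of keratocytes and fibroblasts were below that median. Of 4 endothelial markers only *CDH5*, and of 5 leukocyte markers only *CD68*, were above it. *CDH5* had a log2 signal of 6.77 with miR-184 and 8.19 with NC, *CD68* 7.63 and 7.62. *CD14*, below the median, was at 3.78 against 3.19, a difference of 0.59 at the threshold that did not pass it after median centring, quantile normalization or loess. Among the corneal markers *KRT5* (0.88) and *CDH1* (0.75) were higher with miR-184 and *KRT19* (-0.92) was lower. The part of other cell types in the differences was not tested.

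Complement is a chain of plasma and cell-surface proteins that marks targets for removal and can lyse them. In the classical pathway C1q engages the proteases C1r and C1s, which cleave C4 and C2. All pathways meet at the cleavage of C3, and factor B gives the alternative pathway its own C3-cleaving enzyme. Host cells are protected by CD55, which speeds the decay of these enzymes, by CD46, a cofactor for the cleavage of C3b and C4b by factor I, and by CD59, which blocks the membrane attack complex. Corneal epithelium makes several complement proteins and carries these regulators. A microRNA guides silencing through its seed (bases 2 to 8), which pairs with sites in mRNAs. The mature miR-184 sequence is given because *CD55* is among the genes that the study selected as predicted targets. The RefSeq sequence (GRCh38.p14, chr15:79209840-79209861, plus strand) is printed 5′ to 3′ with the seed in capitals.
hsa-miR-184: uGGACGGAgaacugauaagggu
An mRNA site that pairs with this seed reads UCCGUCC. The 3′ ends of the complement mRNAs were not analysed here.

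*CD55*, the decay-accelerating factor, had the largest difference among the 8 measured genes. It read 6.48 with miR-184 against 7.52 with NC (-1.03), 2.05 times lower with miR-184. Among the 1000 genes nearest to it in mean signal, 34 had a difference further below 0. The study had taken *CD55* from these same arrays for being lower and for a predicted miR-184 site. The direction of *CD55* here is therefore no independent evidence. The study lists *CD55* under cell proliferation. Its selection of lower genes also used a cutoff on *P*, and its Methods do not state the number of arrays behind that *P*. For comparison with the genes that the study names as direct targets, *LASP1*, an actin-binding adaptor, had a difference of -2.83, *CARM1*, an arginine methyltransferase, -2.21, and *CDC25A*, a phosphatase of the cell cycle, -0.90. The difference of *CD55* thus lay between those of *CARM1* and *CDC25A*. Of the 1000 genes nearest to each in mean signal, 1 lay further below 0 than *LASP1*, 3 than *CARM1* and 27 than *CDC25A*. For *CD55* the count was 34, near that of *CDC25A*, and without replicates these counts have no error by which to rank the genes. The study took these targets from the same arrays and tested them with luciferase reporters and Western blots. It reports no such test of *CD55*, and direct action of miR-184 on *CD55* was not tested here.

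*CD46*, the membrane cofactor protein, was nearly the same in both arrays. It read 10.74 with miR-184 and 10.65 with NC, a difference of 0.09. Of the 1000 genes nearest in mean signal, 585 lay below it and 415 above. It was the only measured gene of the 8 above 0. The feature that the annotation gives to both *CD59* and *C11orf91* read 10.30 with miR-184 and 9.51 with NC, which is 1.73 times higher and opposite to *CD55*. Which of the 2 genes this signal came from cannot be told apart, and it is not counted for *CD59*.

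**Figure D1:**
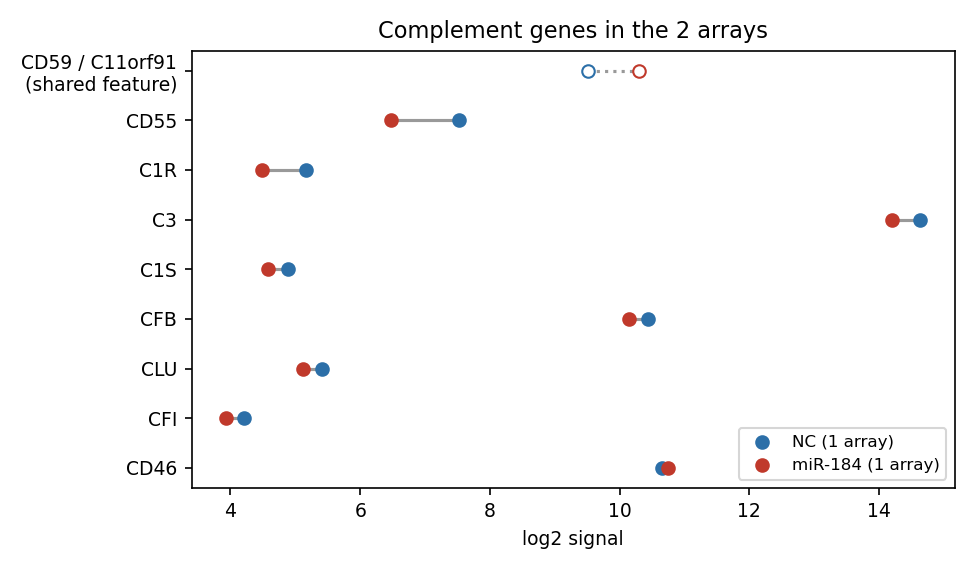
Log2 signal (x axis) of the 8 measured complement genes and of the feature shared by CD59 and C11orf91 (open points), in the NC array (blue) and the miR-184 array (red), with 1 array per condition and no error bars. The red point lies left of the blue one for 7 of the 8 genes, most for CD55 (6.48 against 7.52), and right of it for CD46 and the shared feature.

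The 2 proteases of the C1 complex were both lower in signal with miR-184. *C1R*, which activates itself when C1q binds and then cleaves C1s, was at 4.48 with miR-184 and 5.17 with NC. Its difference of -0.68 (1.60 times lower) passed the threshold, and 26 of the 1000 genes nearest in signal lay further below 0. *C1S*, which cleaves C4 and C2, was at 4.58 against 4.88, a difference of -0.31 that did not pass. *C1RL*, a C1r-like protease that stands beside them on chromosome 12, was at 5.58 against 5.70 (-0.12). The mean signals of *C1R* and *C1S* lay little above the median of all genes (4.24), where 41 and 36 of the 1000 genes nearest to each in signal were lower by 1.5 times.

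*C3*, the protein on which the pathways converge, was at 14.21 with miR-184 and 14.63 with NC. The difference of -0.43 (1.34 times lower) was under the threshold, and 178 of the 1000 genes nearest in signal lay further below 0. *CFB*, which encodes factor B, was at 10.14 against 10.44, a difference of -0.30. *CFB* lies in the major histocompatibility region, and the array holds 7 features for it, 1 on the reference chromosome and the others on alternative haplotypes. Their differences ran from -0.30 to -0.21. These features target nearly the same sequence and are not replicates of the cells. *C2*, the classical counterpart of *CFB* and its neighbour, was below the median signal and read 3.41 against 3.47 (-0.06).

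The 2 secreted regulators among the 8 genes, *CFI* and *CLU*, showed small differences on the same side. Of all 10 measured secreted regulators, 5 were below 0 and 5 above (median -0.05), and *C4BPB* (-1.24) is described below. *CFI*, the protease that inactivates C3b and C4b, read 3.94 with miR-184 and 4.21 with NC (-0.27). It was the only one of the 8 genes with a mean signal below the median of all genes. *CLU*, which encodes clusterin, a secreted chaperone that also binds terminal complement proteins, read 5.12 against 5.41 (-0.29). Of the 1000 genes nearest in signal to each, 72 lay further below 0 than *CFI* and 179 further than *CLU*. *SERPING1*, the inhibitor of C1r and C1s, was at 6.09 against 6.44 (-0.35), so that proteases and inhibitor differed in the same direction. None of these 3 genes passed the threshold.

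Of the 8 measured genes 2 (*CD55* and *C1R*) passed the threshold on the lower side, none on the higher side, and 6 lay between. Among all 22368 genes, 930 (4.16%) were lower and 836 (3.74%) higher by that much. Among the 11184 genes with a mean signal at or above the median, which hold 7 of the 8 genes, the shares were 7.74% and 6.24%. The difference was below 0 for 7 of the 8 genes (87.5%), against 40.5% of all genes and 51.2% of those at or above the median signal. The genes were chosen with earlier results of these data known, so that these shares are a description and no independent evidence. The median difference of the 8 genes was -0.30, while the median was 0.04 over all genes and -0.02 over those at or above the median signal. Without *CD55*, which the study had selected, 1 of 7 genes was lower and the median was again -0.30. At a threshold of 2 times only *CD55* remained lower. Each of the 8 differences kept its sign when the arrays were scaled in other ways, between -1.08 and -0.99 for *CD55*, -0.72 and -0.68 for *C1R*, and 0.05 and 0.11 for *CD46*.

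**Figure D2:**
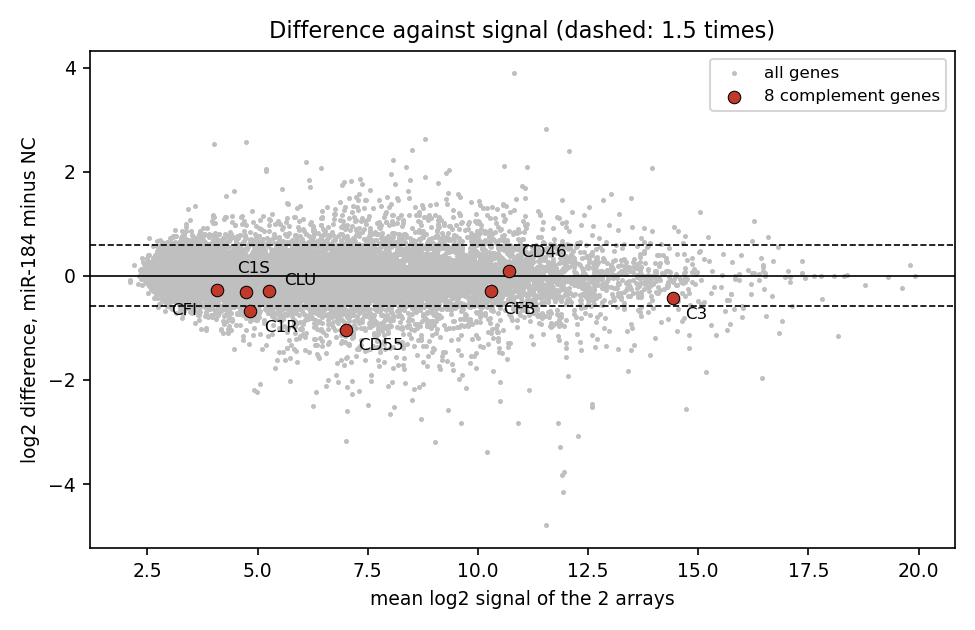
Log2 difference, miR-184 minus NC (y axis), against the mean log2 signal of the 2 arrays (x axis) for all 22368 genes (grey) and the 8 complement genes (red), with dashed lines at 1.5 times. CD55 and C1R lie below the lower line, C3, CFB, CFI, C1S and CLU between it and 0, and CD46 just above 0.

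The wider system was described with 60 genes in 6 lists by role, of which 53 were measured. The lists too were written with earlier results of these data known, and their shares are a description only. *C4BPB*, *CD55* and *C1R* passed the threshold on the lower side and none on the higher. These 3 are 5.66% of the 53 genes, where 4.16% of all genes were lower and 3.74% higher. All 3 were among the 12 genes at or above the median signal (25% of them), where 7.74% of all genes were lower. Most of the 53 genes, 41, had a mean signal below the median of all genes, and none of these passed the threshold. They included all 7 genes of the terminal pathway, such as *C5* (3.97 with miR-184 against 4.03 with NC), and 9 of the 10 receptors. The median of these 41 genes was 0.07, the same as that of all genes below the median signal (0.07). In the other 12 genes the median was -0.30, with 9 (75.0%) below 0, where all genes at or above the median signal had a median of -0.02 and 51.2% below 0. Of these 12 genes 7 were among those described above, and the remaining 5 were *C4BPB*, *SERPING1*, *C1RL*, *C1QBP* and *FCN1* (median -0.12, 3 below 0). The features of *C4A* and *C4B* carry several symbols, and 9 such features lay between 3.69 and 3.76 in both arrays. A further feature carries *C4B* alone and is the one counted, at 2.05 against 2.14.

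By role, 1 of 16 components of the classical and lectin pathways was lower (*C1R*, 6.25%). None of 4 genes of *C3* and the alternative pathway or of 7 terminal components was lower. Of 6 membrane regulators 1 was lower (*CD55*, 16.7%), and of 10 secreted regulators 1 (*C4BPB*, 10%). Among all genes 4.16% were lower, and 7.74% of those at or above the median signal. None of 10 receptors passed, and *C1QBP*, a mostly mitochondrial protein that can bind C1q, was the only receptor at or above the median signal, at 12.85 against 12.78.

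**Figure D3:**
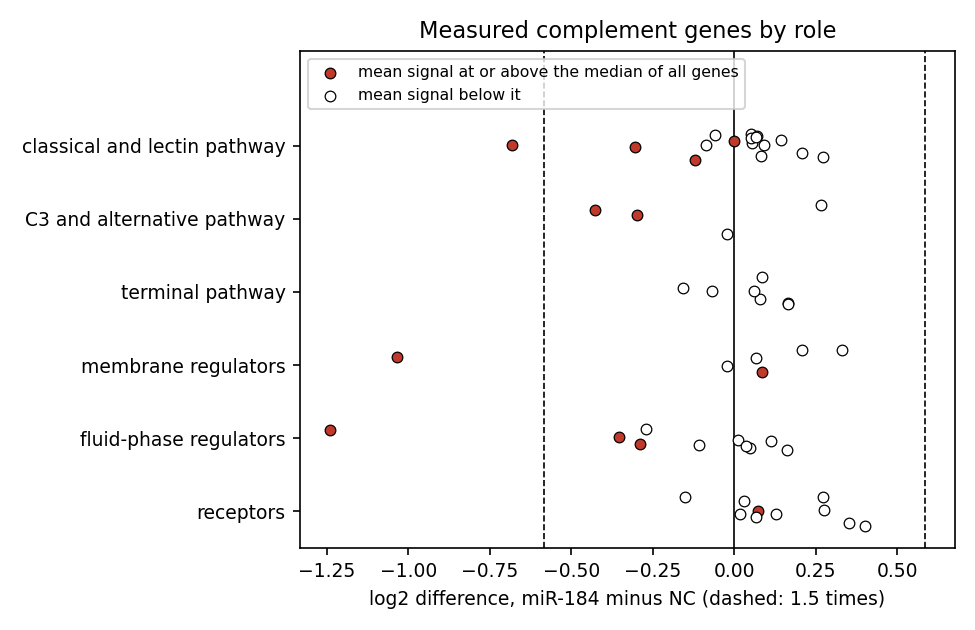
Log2 difference, miR-184 minus NC (x axis), of the 53 measured complement genes in 6 lists by role, 1 point per gene with vertical scatter for legibility and dashed lines at 1.5 times. Filled points are the 12 genes with a mean signal at or above the median of all genes, and the 3 points left of the lower line are C4BPB, CD55 and C1R.

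*C4BPB* had the largest difference of the 53 genes. It encodes the beta chain of C4b-binding protein, a plasma regulator that acts on C4b and binds protein S. Its log2 signal was 4.05 with miR-184 and 5.29 with NC, a difference of -1.24 (2.36 times lower). The miR-184 value lay below the median signal of all genes (4.24). *C4BPA*, which encodes the alpha chain that carries the regulatory activity, was below the median signal in these cells, at 3.29 against 3.13 (0.16). Both genes stand in the cluster of complement regulators on chromosome 1, which the GRCh38.p14 annotation orders as *C4BPB*, *C4BPA*, *CD55*, *CR2*, *CR1*, *CR1L* and *CD46*. Of these 7 neighbours 2, *C4BPB* and *CD55*, were lower, and the study had taken *CD55* from these same arrays for being lower. The share that was lower was 4.16% of all genes and 7.74% of those at or above the median signal. *C4BPB*, *CD55* and *CD46* were the 3 neighbours at or above the median signal. The receptor genes *CR2* (3.02 against 2.96) and *CR1* (3.08 against 3.10) and the *CR1*-like gene *CR1L* (3.19 against 2.98), a close copy of *CR1* that probes may not separate from it, were below it.

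**Figure D4:**
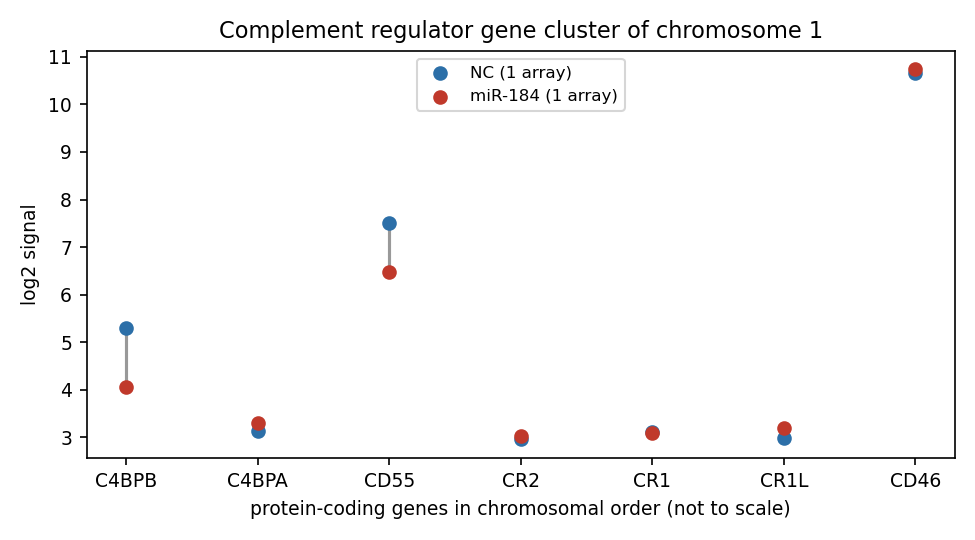
Log2 signal (y axis) of the 7 protein-coding genes of the complement regulator cluster, in chromosomal order and without scale (x axis), in the NC array (blue) and the miR-184 array (red). The 2 arrays stand apart at C4BPB (4.05 against 5.29) and CD55 (6.48 against 7.52) and nearly coincide at CD46 (10.74 against 10.65).

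CD55 and CD59 are held in the membrane by a glycosylphosphatidylinositol (GPI) anchor, which is built in the endoplasmic reticulum and transferred to the protein by a transamidase. Of 28 genes of anchor synthesis 26 were measured, 3 were lower and none was higher (median -0.08), and none was lower by 2 times. The 3 lower genes are 11.5% of the 26, where 4.16% of all genes were lower. All 3 were among the 22 at or above the median signal, where 7.74% of all genes were lower. The 3 were *PIGT* and *PIGS*, subunits of the transamidase, and *DPM2*, a subunit of the enzyme that makes the mannose donor. *PIGT* was at 11.24 with miR-184 and 12.18 with NC (1.92 times lower). *PIGS* was at 5.97 against 6.62, and *DPM2* at 7.08 against 7.72. The other transamidase subunits were under the threshold and had no common direction, with *GPAA1* at 7.27 against 6.80 (0.47), *PIGK* at 10.48 against 10.15 (0.33) and *PIGU* at 9.50 against 9.82 (-0.32). *PIGH*, a subunit of the first enzyme of the pathway, had a difference of -0.51. The binding partners of the regulators were within the threshold as well. *ADGRE5* (CD97), the adhesion receptor that binds CD55, was at 6.40 against 6.90 (-0.50), the related *ADGRE2* at 5.25 against 5.60 (-0.35), and *JAG1*, which encodes a Notch ligand that binds CD46, at 3.90 against 3.95 (-0.06).

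Interferon-gamma, interleukin-6 and its relative oncostatin M, and NF-kB signaling are known to induce complement genes in many cells. Of 22 genes of these routes 19 were measured, with 4 higher, 1 lower and a median of -0.19. The shares were 21.1% higher and 5.26% lower, against 6.24% and 7.74% of all genes at or above the median signal, where 17 of the 19 lie. At a threshold of 2 times 1 was higher and none lower. *IL6R*, the interleukin-6 receptor, had a log2 signal of 6.19 with miR-184 and 4.19 with NC (4.01 times higher). *OSMR*, the oncostatin M receptor, was at 13.46 against 12.49 (1.96 times higher). *STAT3*, the transcription factor of both receptors, was 1.62 times higher, and *SOCS3*, its feedback inhibitor, 1.66 times. *IL6ST*, the signaling chain that both receptors share (-0.37), and the kinases *JAK1* (0.18), *JAK2* (0.09) and *TYK2* (-0.28) were under the threshold. *IRF1*, a transcription factor of the interferon response, was the 1 lower gene, at 6.68 against 7.47 (1.73 times lower). The NF-kB subunits *NFKB1* (-0.40), *RELA* (-0.34) and *NFKB2* (-0.20) were within the threshold.

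**Figure D5:**
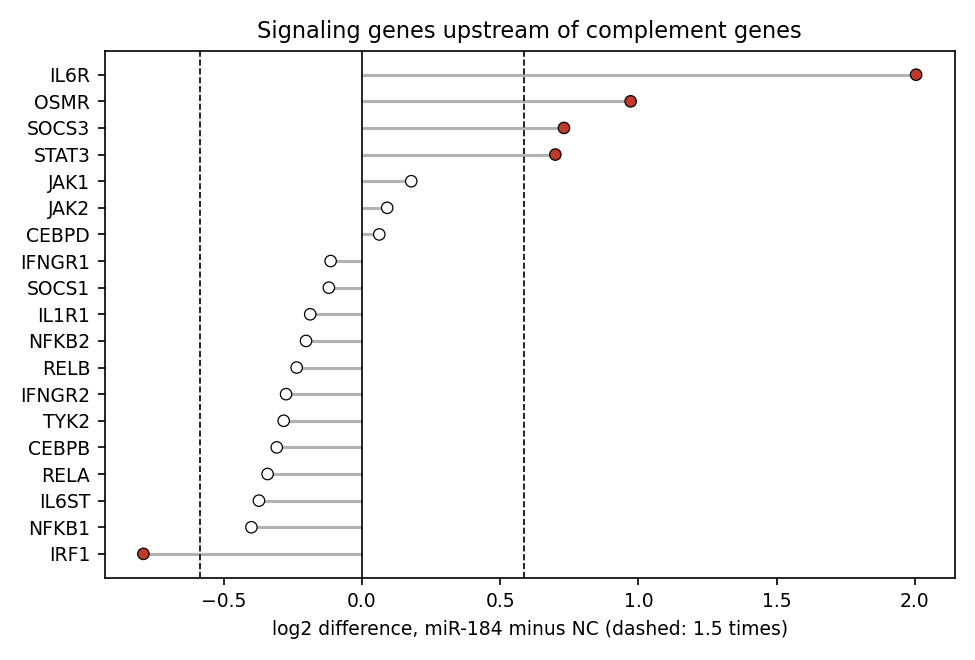
Log2 difference, miR-184 minus NC (x axis), of the 19 measured signaling genes upstream of complement genes, ordered by difference, with dashed lines at 1.5 times. Filled points passed the threshold, namely IL6R, OSMR, SOCS3 and STAT3 to the right and IRF1 to the left.

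The promoters of the complement genes were searched for the letters that such factors bind, and for the cyclic AMP element and the AP-1 site. RefSeq promoter windows (GRCh38.p14, 250 bases before a start site to 50 after it) could be read for 6 of the 9 genes. No window was listed for *C3*, *C1S* and *CLU*. The motifs, on both strands, were the interferon-stimulated response element GAAANNGAAA, the STAT site TTCNNNGAA, the cyclic AMP element TGACGTCA, the AP-1 site TGANTCA and the NF-kB consensus. They occur in 3.57%, 7.66%, 1.85%, 7.71% and 5.91% of all 35116 windows. The *CFB* window holds the first at position -140 and the second at -92, and 1 of the 2 windows of *C1R* holds the second at -86, counted from the start site to the first base of the match. The first match lies on the opposite strand, and no match overlaps another. Of 3 windows of *C4BPB* 2 overlapping ones hold the same STAT site. These windows are printed with the matches in capitals, 5′ to 3′ on the strand of the gene, chr6:31945845-31946144 (plus strand) for *CFB* and chr12:7091844-7092143 (minus strand) for *C1R*.
CFB: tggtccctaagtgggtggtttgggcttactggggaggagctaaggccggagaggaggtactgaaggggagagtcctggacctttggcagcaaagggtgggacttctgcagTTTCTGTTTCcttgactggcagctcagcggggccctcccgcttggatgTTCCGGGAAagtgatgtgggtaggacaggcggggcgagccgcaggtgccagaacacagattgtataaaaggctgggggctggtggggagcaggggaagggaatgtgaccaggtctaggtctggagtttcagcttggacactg
C1R: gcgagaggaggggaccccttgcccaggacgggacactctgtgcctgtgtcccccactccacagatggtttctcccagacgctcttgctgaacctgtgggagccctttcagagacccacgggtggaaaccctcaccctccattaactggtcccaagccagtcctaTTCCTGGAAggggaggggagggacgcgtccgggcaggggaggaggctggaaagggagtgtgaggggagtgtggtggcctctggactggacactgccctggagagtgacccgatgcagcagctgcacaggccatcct
The windows of *CD55*, *CD46* and *CFI* hold none of the 5 motifs. The STAT site also occurs once in *CD59*, in the overlap of 2 of its 4 windows, and another one holds 3 matches of the AP-1 site. A match is a run of letters and not a measured site.

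Acute-phase genes, which the liver and some epithelia induce together with *C3* and *CFB*, did not share a direction. Of 15 measured genes 1 was higher (6.67%) and none lower (median 0.07), where 3.74% of all genes were higher and 4.16% lower. The mean signal was below the median of all genes for 13 of the 15. The serum amyloid A genes are not counted, because their features carry a second symbol. The features of *SAA1* (-0.50), *SAA2* (-0.28) and *SAA4* (-0.32) lay on the side of *C3* and *CFB*. *SERPINA3*, a protease inhibitor induced through STAT3, was at 9.71 with miR-184 and 7.29 with NC (5.35 times higher), opposite to *C3* and *CFB*. *LCN2*, the iron-binding lipocalin, was at 7.62 against 7.47 (0.15). *PTX3*, a pentraxin that binds C1q, read 3.92 against 3.58 (0.34). *FGG*, a fibrinogen chain, and *HPX*, the heme-binding hemopexin, had differences of 0.21 and 0.18. These 3 genes had a mean signal below the median of all genes.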

How the data were processed

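The 2 deposited columns hold log2 signals per feature, made by the authors from the Affymetrix Human Transcriptome Array 2.0 (Command Console, defaults) and normalized in Expression Console. Column names in the study's supplement give robust multi-array averaging at gene level. GEO's labels conflict with this: they give Cy3 labelling with an Agilent kit, and Agilent Feature Extraction 9.1 stands in the submitters' notes on processing. The identifiers have the Affymetrix form, and for the annotation's genome build the sources used here name none. The number of arrays limits the precision, and isoforms are not separated.

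Of 65854 features, 23730 carried 1 symbol in the platform annotation and were used (303 symbols were updated through GRCh38.p14 RefSeq). Another 1539 had several symbols and 40585 were not listed. The values were used without filter or further normalization. No test was made. The members and the gene lists were chosen with earlier results of these data known. Genes named were the 9 complement genes, listed complement genes past 1.5 times or close in function, and, from each other list, at most 4 that differed most (of the cell type markers, those at or above the median signal or of the cornea, and *CD14*). *GPAA1*, *PIGK*, *PIGU*, *STAT3*, *IL6ST*, *JAK1*, *JAK2*, *TYK2*, *NFKB1*, *NFKB2*, *RELA*, *LCN2* and flanking genes were named after their values were seen, as were the other genes of the chromosome 1 cluster. Some listed genes are not reported here. Genes nearest in signal (1000 per gene) serve as description only. Alternatives were median centring, quantile normalization, loess (span 0.3), the mean of a gene's features, a filter at the median signal and a threshold of 2 times. Leaving out *CD55* and adding the shared *CD59* feature were chosen after seeing the data. The steps were tested on simulated data with known differences, which checks the code and not the reliability of the differences here. Python 3.11.15, numpy 2.4.6, pandas 2.3.3, statsmodels 0.14.6 and matplotlib 3.10.9 were used.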

Additional observations from a re-analysis of the deposited data

Results flagged for a closer look

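The feature annotated to both *CD59* and *C11orf91* lies outside the counts above. Its log2 signal was 10.30 with miR-184 and 9.51 with NC, a difference of 0.79, and it is given because it is a signal in data that the comparisons did not use and stood above the control array. With 1 array per condition its error is unknown, and which of the 2 genes it measures was not tested.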

How the results depend on the processing

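The counts and medians of the 8 measured genes, of the 53 complement genes and of all genes were recomputed under 6 alternatives and 2 chosen after seeing the data. At a threshold of 2 times 1 of the 8 genes was lower in place of 2, and 303 of all genes were lower and 220 higher in place of 930 and 836. Without *CD55* 1 of the remaining genes was lower. With the feature shared by *CD59* and *C11orf91* counted, 1 of 9 genes and 1 of 54 complement genes were higher in place of 0. The median of the 53 complement genes, 0.05, changed sign after quantile normalization (-0.014), after removal of the trend with signal (-0.015) and in the 12 genes whose signal reached the median (-0.30). The other 49 comparisons of counts and medians stayed within 1.5 times or within 0.1 on the log2 scale, and in 32 of 32 values of single genes the side of the threshold did not change. No paired analysis was possible because each group has 1 array, and for the same reason no array could be left out. Without replicates, no difference can be set against an error. This holds for *CD55*, *C1R* and *C3* as it does for the smaller differences of *C1S*, *CFB*, *CFI* and *CLU*.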

Other observations

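The protein-coding genes that flank the 2 complement clusters were read after the values had been seen. *LPCAT3*, a lysophospholipid acyltransferase gene next to *C1S*, had a log2 signal of 10.64 with miR-184 and 11.79 with NC (-1.16). *YOD1*, a deubiquitinase gene next to *C4BPB*, was at 5.24 against 5.53 (-0.30), and *CD34*, next to *CD46*, was below the median signal at 3.22 against 3.13. Beyond *CD34* stands *PLXNA2*, a semaphorin receptor gene that the study had also selected on these arrays, at 7.09 against 7.99 (-0.90, 1.87 times lower), and beyond *YOD1* stands *PFKFB2* (-0.23). *RBP5*, next to *C1RL*, read 4.14 against 3.78 (0.37), and *CLSTN3* beyond it 6.42 against 6.91 (-0.49). *EMG1*, beyond *LPCAT3*, had a difference of -0.03.

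Features with more than 1 symbol also held the serum amyloid A genes. The feature of *SAA1* and *RNA5SP334* had a difference of -0.50, that of *SAA2* and *RNA5SP333* -0.28, and that of *SAA4* and *SAA2-SAA4* -0.32. The feature of *IRF9* and *RNF31* had a difference of -0.39.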
